A study of Mus musculus with 2 samples.

Results

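Of the 13613 barcodes kept in the SOX9iresGFP+ fraction of the postnatal day 3 mouse pituitary, 516 combined abundant *Cga* with *Neurod1* and had neither *Gnrhr* nor *Lhb*. Each barcode marks the RNA of 1 droplet and is called a cell below. A cell was selected when it had at least 1000 genes, at most 10% mitochondrial counts, *Cga* of at least 2000 counts-per-million (CPM) and at least 2 *Neurod1* molecules, no *Gnrhr*, no *Lhb*, at most 1 *Pou1f1* and at most 2 *Col1a1* and *Col3a1* molecules together. Molecules were counted by unique molecular identifiers (UMIs). The 516 *Neurod1*+ *Cga*-rich cells comprised 451 of 8009 cells in the male library and 65 of 5604 in the female library. The selection used measured values, so the levels of the genes in the rule are given as a description.

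The study sorted GFP+ cells from pituitaries of Sox9iresGFP/+ males (XY) and females (XX) at postnatal day 3 and sequenced 1 droplet library per sex, each from 3 pooled pituitaries. The reporter is carried by the *Sox9* gene, and GFP outlasts SOX9 protein, so the fraction can hold stem cells and cells recently derived from them. All animals carried 1 reporter allele, had the same age and have no treatment in the labels. With 1 library per sex, sex cannot be told apart from the animals, the sort or the library,, and the libraries were compared without a test. Each comparison was therefore made within a library and then set beside the other library.

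Gonadotrophs make the 2 gonadotrophins, luteinising hormone and follicle-stimulating hormone. Each is a dimer of the common alpha subunit, encoded by *Cga*, with its own beta subunit, encoded by *Lhb* or *Fshb*, and thyrotrophs pair the same alpha subunit with the product of *Tshb*. Release is driven by gonadotrophin-releasing hormone through its receptor, encoded by *Gnrhr*. *Cga* comes on early in this lineage, before the beta subunits and the receptor. NEUROD1 is a basic helix-loop-helix (bHLH) factor that acts at E-boxes, short motifs of the form CANNTG, in neuroendocrine cells. ST18 is a zinc-finger factor of the myelin transcription factor family, FOXL2 is a forkhead factor that acts on the gonadotroph subunit genes, and VEGFD is a secreted ligand of the vascular endothelial growth factor family.

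The libraries held 10569 male and 5796 female barcodes, of which 2560 and 192 failed the limits on genes and mitochondrial counts. The selected cells had a median of 13470 UMIs and 3843 genes in the male library and of 14372 UMIs and 3919 genes in the female library. Their median depth was thus similar, but the shallowest had 1703 UMIs in the male and 5004 UMIs in the female library. *Xist* was at 0.331 CPM in male and 799 CPM in female selected cells, while *Ddx3y* was at 49.5 and 0 CPM, as the labels state. The 2 libraries shared 19 barcode sequences, none of them in a selected cell. Doublets were not removed, and 36 male (7.98%) and 1 female (1.54%) of the selected cells were among the highest Scrublet doublet scores of their library. The share marked in a library was fixed in advance at 0.8% per 1000 barcodes, and so was larger in the male library.

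A level below is the sum of a gene's UMIs in a set, per all UMIs of the set, in CPM. Ranges in parentheses are exact 95% intervals, by Poisson counts for levels, after Clopper and Pearson for shares and conditional on the total for ratios. All of them cover counting error only, since cells of 1 library are not replicates. A gene was called higher or lower when its level, with 5 CPM added, differed by at least 2-fold in the same direction in both libraries, among genes with a mean of at least 20 CPM and at least 10 UMIs in each library.

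The cells at the limits of the rule formed no gap in *Cga*. In the male library *Cga* ran from 2001 CPM through a median of 8486 to 41475 CPM in the selected cells, and the highest cell below the limit that met the other conditions was at 1982 CPM. In the female library the values were 2089, 5731 and 35132 CPM, with 1905 CPM just below the limit. *Neurod1* had a median of 18 UMIs in male and 32 UMIs in female selected cells. Only 32 male and 2 female cells sat at the limit of 2 *Neurod1* UMIs, whereas 71 male and 12 female *Cga*-rich cells that met the other conditions had 1 *Neurod1* UMI and 184 and 21 had none. Below the *Cga* limit, 157 male and 70 female cells met the other conditions.

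**Figure D1:**
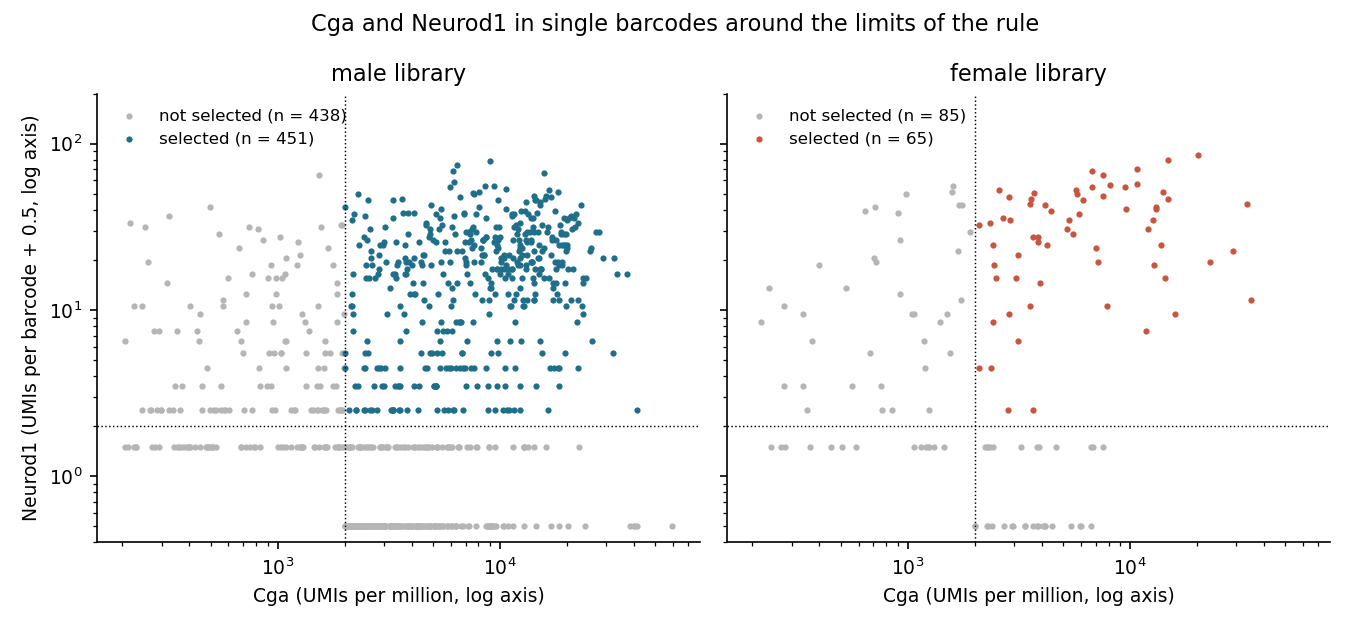
*Cga* and *Neurod1* in single cells that met the other conditions of the rule, with at least 1 *Neurod1* UMI or 2000 *Cga* CPM, from 200 *Cga* CPM upward, in the male (left) and female (right) library. The horizontal axis gives *Cga* CPM and the vertical axis *Neurod1* UMIs plus 0.5, both on log axes, coloured points are the 451 male and 65 female selected cells, grey points the others, and dotted lines the limits. The cells continue across the *Cga* limit, and most selected cells lie well above the *Neurod1* limit, with medians of 18 and 32 UMIs.

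Since NEUROD1 acts at E-boxes, the promoters of the genes named in this set were searched for the E-boxes CAGCTG and CAGATG, the latter on both strands. CAGCTG reads the same on either strand, and the motifs do not overlap each other. The windows are those of RefSeq on GRCm38.p6, from 250 bases before to 50 after a start site. Across the windows of all 27025 genes of that table, CAGCTG was found for 18.3% and CAGATG for 19.2%. Among the genes that define the cells or stood apart from both reference sets (below), the table has windows for *Cga*, *Neurod1*, *Vegfd*, *Foxl2*, *Cox8b*, *Gadd45a*, *Neurod4* and *Ptn*. Those with either motif are shown in full because *Cga* defines the cells, and *Cox8b* and *Neurod4* were higher in them than in either reference set. Capitals mark CAGCTG, and other sequences of the form CANNTG were neither searched nor marked.
Cga promoter: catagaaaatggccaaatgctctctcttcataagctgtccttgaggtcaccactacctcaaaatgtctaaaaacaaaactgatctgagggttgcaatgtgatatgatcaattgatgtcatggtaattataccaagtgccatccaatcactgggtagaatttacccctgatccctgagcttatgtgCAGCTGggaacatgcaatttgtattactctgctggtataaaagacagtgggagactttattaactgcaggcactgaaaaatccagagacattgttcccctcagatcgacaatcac
Cox8b promoter: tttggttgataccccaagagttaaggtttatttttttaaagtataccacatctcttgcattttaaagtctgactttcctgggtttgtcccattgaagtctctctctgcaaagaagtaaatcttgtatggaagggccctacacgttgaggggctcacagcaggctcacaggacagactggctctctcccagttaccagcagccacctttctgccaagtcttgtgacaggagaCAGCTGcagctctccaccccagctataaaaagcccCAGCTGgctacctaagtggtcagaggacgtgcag
Neurod4 promoter: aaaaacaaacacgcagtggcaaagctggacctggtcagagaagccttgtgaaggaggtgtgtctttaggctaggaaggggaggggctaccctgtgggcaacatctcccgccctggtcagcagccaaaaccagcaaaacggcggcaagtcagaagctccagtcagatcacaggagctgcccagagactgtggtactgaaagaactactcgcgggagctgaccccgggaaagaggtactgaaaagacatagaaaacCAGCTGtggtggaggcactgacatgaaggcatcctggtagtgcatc
The *Cga* window (chr4:34893529-34893828, plus strand) holds 1 CAGCTG, which begins at position -65 from the start site. The *Cox8b* window (chr7:140900397-140900696, minus strand) holds 2, at -19 and 17, and 1 of the 2 *Neurod4* windows (chr10:130280089-130280388, minus strand) holds 1, at 5. Neither motif was present in the windows of *Neurod1*, *Vegfd*, *Foxl2*, *Gadd45a* and *Ptn*. These matches describe the sequence, and binding was not measured.

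The 3 markers that had no part in the rule, *Foxl2*, *St18* and *Vegfd*, were all found in the selected cells, and were proposed as markers with earlier results of these data known. *Foxl2* (ENSMUSG00000050397, chr9:98955288-98958543, plus strand) was at 288 CPM (274 to 301) in male and 247 CPM (216 to 281) in female selected cells. *St18* (ENSMUSG00000033740, chr1:6487231-6860940, plus strand) was found at 179.7 CPM (169 to 191) in males and 228 CPM (198 to 261) in females. *Vegfd* (ENSMUSG00000031380, chrX:164373378-164402650, plus strand) had 206 CPM (195 to 218) in males and 192 CPM (165 to 222) in females. The levels of the 2 libraries lay within 1.27-fold of each other for all 3 genes. Coordinates are those of GENCODE vM21 on mm10.

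To compare shares, 5000 UMIs were drawn from each cell, and 53 male and 0 female selected cells were too shallow for this. *Foxl2* was then found in 73.9% (69.3 to 78.1) of male selected cells and 67.7% (54.9 to 78.8) of female ones (unthinned, 88.9% and 92.3%), and in 1.12% and 1.19% of collagen-rich cells without *Pitx1*, which should lack it and whose median depths were 8530 and 8045 UMIs. *St18* was found in 56.5% (51.5 to 61.5) and 60.0% (47.1 to 72.0) (unthinned, 76.1% and 78.5%), against 0.449% and 0 of 253 collagen-rich cells, which allows a share of up to 1.19%. *Vegfd* was found in 51.8% (46.7 to 56.8) and 47.7% (35.1 to 60.5) (unthinned, 73.8% and 70.8%). The collagen-rich cells express *Vegfd* themselves, at 61.4 and 56.7 CPM, so the *Pou1f1*+ cells, with 1.31% and 1.54%, give its background. Unthinned, *St18* was found in 27.0% and 32.7% of *Pou1f1*+ cells. Unthinned shares in *Gnrhr*+ cells (defined below, 15 of them female) were 90.3% and 86.7% for *Foxl2*. They were 74.9% and 86.7% for *St18* and 96.3% and 93.3% for *Vegfd*. In *Smoc2*+ *Pou3f4*+ cells (also below) the 3 genes had 62.1% and 55.0%, 20.4% and 17.1%, and 8.11% and 6.28%. After thinning, 28 of 398 male and 5 of 65 female selected cells had none of the 3 genes, while 102 and 14 had all 3.

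The defining genes of a working gonadotroph were absent or rare. *Gnrhr* and *Lhb* were at 0 by the rule. *Fshb*, which the rule did not use directly, had no UMI in either library, which allows up to 0.497 CPM in males and 3.19 CPM in females. Leaving out cells with *Gnrhr* or *Lhb* can also leave out cells with *Fshb*. *Tshb* was at 1.16 and 3.19 CPM. *Nr5a1*, whose product SF1 drives gonadotroph genes, was at 22.2 CPM (18.6 to 26.3) and 12.8 CPM (6.60 to 22.3). It was found in 7.29% and 4.62% of thinned cells (unthinned, 22.4% and 15.4%). Outside the rule, the markers of the name gonadotroph precursor that were found are *Foxl2*, *St18* and *Vegfd*, and what the cells go on to become was not measured. *Sox9* itself was at 15.4 and 9.58 CPM and eGFP transcripts at 2.82 and 5.32 CPM, although the cells were sorted for the fluorescence of the protein.

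Markers of other cell types were mostly near 0. The 12 mesenchymal and pericyte markers summed to 14.9 CPM in male and 4.26 CPM in female selected cells, with *Col1a1* and *Col3a1* limited by the rule, against 15849.7 and 18218 CPM in the collagen-rich cells. The 7 endothelial markers summed to 9.44 and 8.52 CPM the 8 posterior lobe markers to 12.6 and 13.8 CPM, and the 11 immune and blood markers to 0.994 and 0 CPM. Of the POU1F1 lineage, *Prl* was at 5.96 and 0 CPM and *Gh* at 118 and 37.3 CPM, against 21978 and 38474 CPM in *Pou1f1*+ cells. Since the rule limited *Pou1f1* and the *Pou1f1*+ cells were chosen by it, this contrast is not independent of the selection. In single selected cells the 10 markers of this lineage summed to at most 88949 CPM in males and 434 CPM in females. The exception was *Pomc*, the precursor of corticotrophin, at 3943 CPM (3894 to 3994) and 1184 CPM (1115 to 1256). Most of it came from few cells, as 16 male cells and 1 female cell with at least 1% of their UMIs from *Pomc* held 95.2% and 96.7% of the *Pomc* counts. Without them *Pomc* was at 192 and 40.4 CPM. Such *Pomc*-rich cells were 16 of 451 male and 1 of 65 female selected cells. They made up 4.27% of the other male cells kept and 2.44% of the other female ones. The selected cells thus held no larger share of *Pomc*-rich cells than the rest of their library. With the *Pomc*-rich cells included, a *Pomc* UMI was found in 221 of 398 male (55.5%) and 13 of 65 female selected cells after thinning, against 55.7% and 15.0% of collagen-rich cells. *Tbx19*, the corticotroph and melanotroph lineage factor, was at 0.497 and 2.13 CPM. Other genes are given with these *Pomc*-rich cells included. Leaving them out kept 34 of 34 genes called higher and 86 of 88 called lower than in *Gnrhr*+ cells (defined below). Against *Smoc2*+ *Pou3f4*+ cells (also below) it kept 149 of 156 called higher and 87 of 90 called lower.

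The share of selected cells differed between the libraries. They made up 5.63% (5.14 to 6.16) of all male cells kept, against 1.16% (0.896 to 1.48) of all female ones, a ratio of 4.85 (3.74 to 6.40). The 2 sets of cells used for reference did not share this ratio. Cells with at least 2000 *Cga* CPM and at least 2 *Gnrhr* UMIs, called *Gnrhr*+ cells, numbered 267 in males and 15 in females, a ratio of shares of 12.5 (7.42 to 22.6). Cells with at least 2 *Smoc2* and at least 1 *Pou3f4* UMI, genes of differentiating progeny of the stem cells, numbered 513 and 416, a ratio of 0.863 (0.757 to 0.984). Of the 513 and 416 cells, 45 and 18 were also selected cells and 12 and 0 also *Gnrhr*+ cells, and these were counted with those sets, which left 456 male and 398 female *Smoc2*+ *Pou3f4*+ cells for the comparison. There were 1.69 (1.45 to 1.97) selected cells per *Gnrhr*+ cell in males and 4.33 (2.44 to 8.18) in females. Per *Smoc2*+ *Pou3f4*+ cell left for the comparison there were 0.989 (0.866 to 1.13) and 0.163 (0.124 to 0.213). The rule's own limits set all of these numbers. The *Gnrhr*+ cells had median depths of 14969 and 15990 UMIs and the *Smoc2*+ *Pou3f4*+ cells of 14659 and 13609 UMIs. Among the highest Scrublet scores were 42 male (15.7%) and 2 female (13.3%) *Gnrhr*+ cells, a larger share than of the selected cells. The same held for 43 male (9.43%) and 25 female (6.28%) *Smoc2*+ *Pou3f4*+ cells.

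Against the *Smoc2*+ *Pou3f4*+ cells, the selected cells had more of 156 and less of 90 of the 5890 genes compared, which is a background of 2.65% and 1.53%. The 10 leading genes included *Vegfd*, *St18* and genes of vesicle and neurite proteins. *Vegfd* was 25.1 (19.4 to 33.1) times as high in males and 25.7 (18.3 to 36.7) times as high in females, starting from 8.20 and 7.46 CPM. *St18* was 8.57 (7.24 to 10.2) and 11.0 (8.78 to 13.9) times as high, and *Foxl2* 2.94 (2.69 to 3.21) and 2.79 (2.38 to 3.26) times. *Rbp4*, which encodes the plasma retinol-binding protein, was at 258 and 142 CPM against 19.4 and 5.20 CPM. *Scgn*, encoding the calcium sensor secretagogin, was at 183 and 227 CPM against 15.6 and 24.4 CPM. *Syn2*, encoding the synaptic vesicle protein synapsin 2, was at 116 and 89.4 CPM against 6.72 and 7.11 CPM. The other leading genes were *Gap43*, a growth cone protein, *Cntn1*, a neuronal adhesion molecule, *Ankrd2*, *Ppp1r14a* and the imprinted gene *Nnat*, which at 18616 and 14718 CPM was the most abundant of them.

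Among the genes lower than in the *Smoc2*+ *Pou3f4*+ cells, *Runx1* was at 9.11 and 6.39 CPM against 80.4 and 62.9 CPM. *Myb* was at 10.9 and 8.52 CPM against 96.2 and 60.2 CPM. Both encode DNA-binding factors best known from blood cells. *Lrp4*, a WNT co-receptor family member, was 12.7 (9.12 to 18.2) and 8.77 (4.22 to 22.0) times as high in the *Smoc2*+ *Pou3f4*+ cells, and *Zfp36l1*, encoding an RNA-decay factor, 5.11 (4.51 to 5.82) and 22.1 (13.6 to 38.7) times. *Tgif1*, *Kitl*, *Nxn*, *Col16a1*, *Igkc* and *Ifitm3* completed the leading 10. Of the 13 tested genes listed for differentiating cells, 6 were lower and 1, *Mfng*, was higher (1.53% and 2.65% of all genes compared). Their median log2 ratio was -0.93 and -0.90 beside 0.04 and 0.04 over all genes. The WNT transcription factor gene *Lef1* fell from 153 to 49.7 CPM in males and from 152 to 36.2 CPM in females, and *Mycl* from 376 to 91.1 and from 297 to 100.1 CPM. Of 14 tested stem cell genes 2 were lower, *Sox2* at 81.3 and 120.3 CPM against 313 and 379.7 CPM, and *Aldh1a2*, the retinoic acid synthesis gene, at 42.1 and 27.7 CPM against 101 and 67.6 CPM, and none was higher. Against *Gnrhr*+ cells the order of the differentiating-cell list was the reverse, with 5 of 11 tested higher (*Lef1*, *Gadd45g*, *Dll3*, *Mycl* and *Mfng*) and none lower, while 1 of 12 stem cell genes was lower, *Hes1*. Over all genes compared with *Gnrhr*+ cells, 0.558% were higher and 1.44% lower.

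Against the *Gnrhr*+ cells, 34 genes were higher (0.558% of the 6096 compared) and 88 lower (1.44%). The selected cells had to lack *Gnrhr* and *Lhb*, while the reference cells had to have *Gnrhr*. Levels of genes expressed together with these are therefore not independent of the selection, and are given as a description. The 10 genes lower by most included 2 of the mature gonadotroph, *Fshb* and *Tgfbr3l*, which passed the level filter only through the *Gnrhr*+ cells. *Fshb*, the only gene of its list of hormone subunits and receptor that was compared, was at 64.2 and 374 CPM in *Gnrhr*+ cells, at least 129-fold and 117-fold higher than in the selected cells (against a floor of 3 counts in the selected cells of each library). *Tgfbr3l*, which encodes an inhibin co-receptor of gonadotrophs, was at 38.9 and 179 CPM there and at 0.663 and 1.06 CPM in the selected cells, where it had 4 and 1 UMIs. With mitochondrial counts limited to 5%, its female log2 ratio turned from -4.92 to 0.30. *Rgs4*, a regulator of G-protein signalling, was at 58.1 and 130.0 against 1.66 and 3.19 CPM. The female reference set held 15 cells. The neuropeptide gene *Nmu*, *Gamt*, *Clec2l*, *Ddit4l*, *Ptprn*, *Pcsk1n* and *Ptn* made up the rest of the leading 10. Among genes higher in the selected cells, *Rprm*, an inhibitor of cell cycle progression downstream of p53, was at 300.3 and 326 CPM against 62.1 and 32.5 CPM. The keratin gene *Krt17* was at 44.6 and 85.2 CPM against 4.65 and 0 CPM, and the WNT inhibitor gene *Nkd1* at 71.7 and 64.9 CPM against 19.4 and 16.2 CPM. *Mybpc1*, *Dpysl4*, *Thsd7b*, *Grp*, *Cox8b*, *Gadd45a* and *Zmat4* completed the leading 10.

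Secretory granule and exocytosis genes were lower in the selected than in *Gnrhr*+ cells in more cases than higher. In this list 7 of 27 tested were lower and none higher, with a median log2 ratio of -0.62 in males and -1.15 in females. Over all genes compared, 1.44% were lower and 0.558% higher, with medians of -0.03 and 0.01. *Scg2*, a granin of the dense-core granule and the precursor of secretoneurin, stood at 413 CPM (397 to 429) in male and 395 CPM (356 to 437) in female selected cells. It was at 1559 and 3286 CPM in the *Gnrhr*+ and at 81.3 and 86.0 CPM in the *Smoc2*+ *Pou3f4*+ cells. *Chga*, the granin chromogranin A, was at 379 and 415 CPM against 990.4 and 1169.7 CPM in *Gnrhr*+ cells, and *Pcsk1n*, encoding the proSAAS protein, at 108 and 71.3 against 704 and 1287 CPM. *Chgb*, *Ptprn*, *Rab3b* and *Syt7* were the others lower. Against *Smoc2*+ *Pou3f4*+ cells 3 of 21 tested members were higher (2.65% of all genes) and none lower (1.53% of all genes). The 3 were *Scg2*, the vesicle GTPase gene *Rab3a* and the calcium sensor gene *Syt1*. *Syt1* did not follow the granins, since at 256 and 341 CPM it exceeded the 107 and 187 CPM of *Gnrhr*+ cells, by 2.40 (2.17 to 2.66) and 1.82 (1.34 to 2.54) times.

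Transcription factors of the gonadotroph list were mostly uncalled against *Gnrhr*+ cells. Of 14 tested against *Gnrhr*+ cells, 3 were lower (1.44% of all genes), 1 was higher (0.558% of all genes) and 10 were not called. The 3 lower ones were *Nr5a1*, at 63.0 and 56.9 CPM in *Gnrhr*+ cells or 2.84 (2.31 to 3.50) and 4.45 (1.91 to 10.5) times the selected cells, *Gata2*, at 17.1 and 5.32 against 45.6 and 20.3 CPM, and *Nhlh2*, a neuronal bHLH gene, at 21.9 and 9.58 against 61.7 and 126 CPM. For *Gata2* the female selected cells gave only 5 UMIs, and the interval of its female ratio (3.81 (0.878 to 16.6)) included 1. The LIM-homeodomain gene *Isl1* was the higher one, at 503 CPM (486 to 522) and 498 CPM (454 to 546) against 200.1 and 150.3 CPM. Against *Smoc2*+ *Pou3f4*+ cells 1 of 11 tested was higher, *Foxl2*, and none lower (2.65% and 1.53% of all genes). *Foxl2* was not called against *Gnrhr*+ cells, with ratios of 1.32 (1.22 to 1.42) and 1.27 (0.925 to 1.77). The pituitary homeodomain genes *Pitx1*, *Lhx3*, *Six3* and *Six6* were not called against either set. *Pitx1*, for example, was at 559.8 and 494 CPM in selected, 436 and 556 CPM in *Gnrhr*+ and 372 and 346 CPM in *Smoc2*+ *Pou3f4*+ cells.

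In the list of neuroendocrine bHLH and zinc-finger factors, 1 gene, *Neurod4*, was called higher against both sets. Of 19 tested against *Smoc2*+ *Pou3f4*+ cells, 6 were higher and 2 lower (2.65% and 1.53% of all genes). The higher ones were *St18*, its relative *Myt1*, *Neurod4*, *Id4*, and the neuronal RNA-binding genes *Elavl4* and *Celf3*. The lower ones were *Id1* and *Id2*. Of 21 tested against *Gnrhr*+ cells, *Neurod4* and *Rcor2*, encoding a corepressor of the REST complex family, were higher and *Id1* was lower (0.558% and 1.44% of all genes). The ID proteins lack a DNA-binding domain and hold bHLH factors inactive. *Neurod1* belongs to the rule and is given as a description, at 1429 and 2257 CPM in selected, 727 and 1572 CPM in *Gnrhr*+ and 95.7 and 105 CPM in *Smoc2*+ *Pou3f4*+ cells. The related factor gene *Nhlh1* was too low for the filter against *Smoc2*+ *Pou3f4*+ cells and was not called against *Gnrhr*+ cells. Its level was 20.7 CPM (17.2 to 24.7) in males and 36.2 CPM (25.1 to 50.6) in females, against 8.45 and 16.2 CPM in *Gnrhr*+ and 0.672 and 0.347 CPM in *Smoc2*+ *Pou3f4*+ cells. Its ratio over *Gnrhr*+ cells was 2.45 (1.70 to 3.59) and 2.23 (0.795 to 8.64), where the female interval includes 1, while its paralogue *Nhlh2* was lower. *Insm1*, a zinc-finger factor gene of neuroendocrine cells, was called against neither set, at 254 and 246 CPM in the selected cells.

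**Figure D2:**
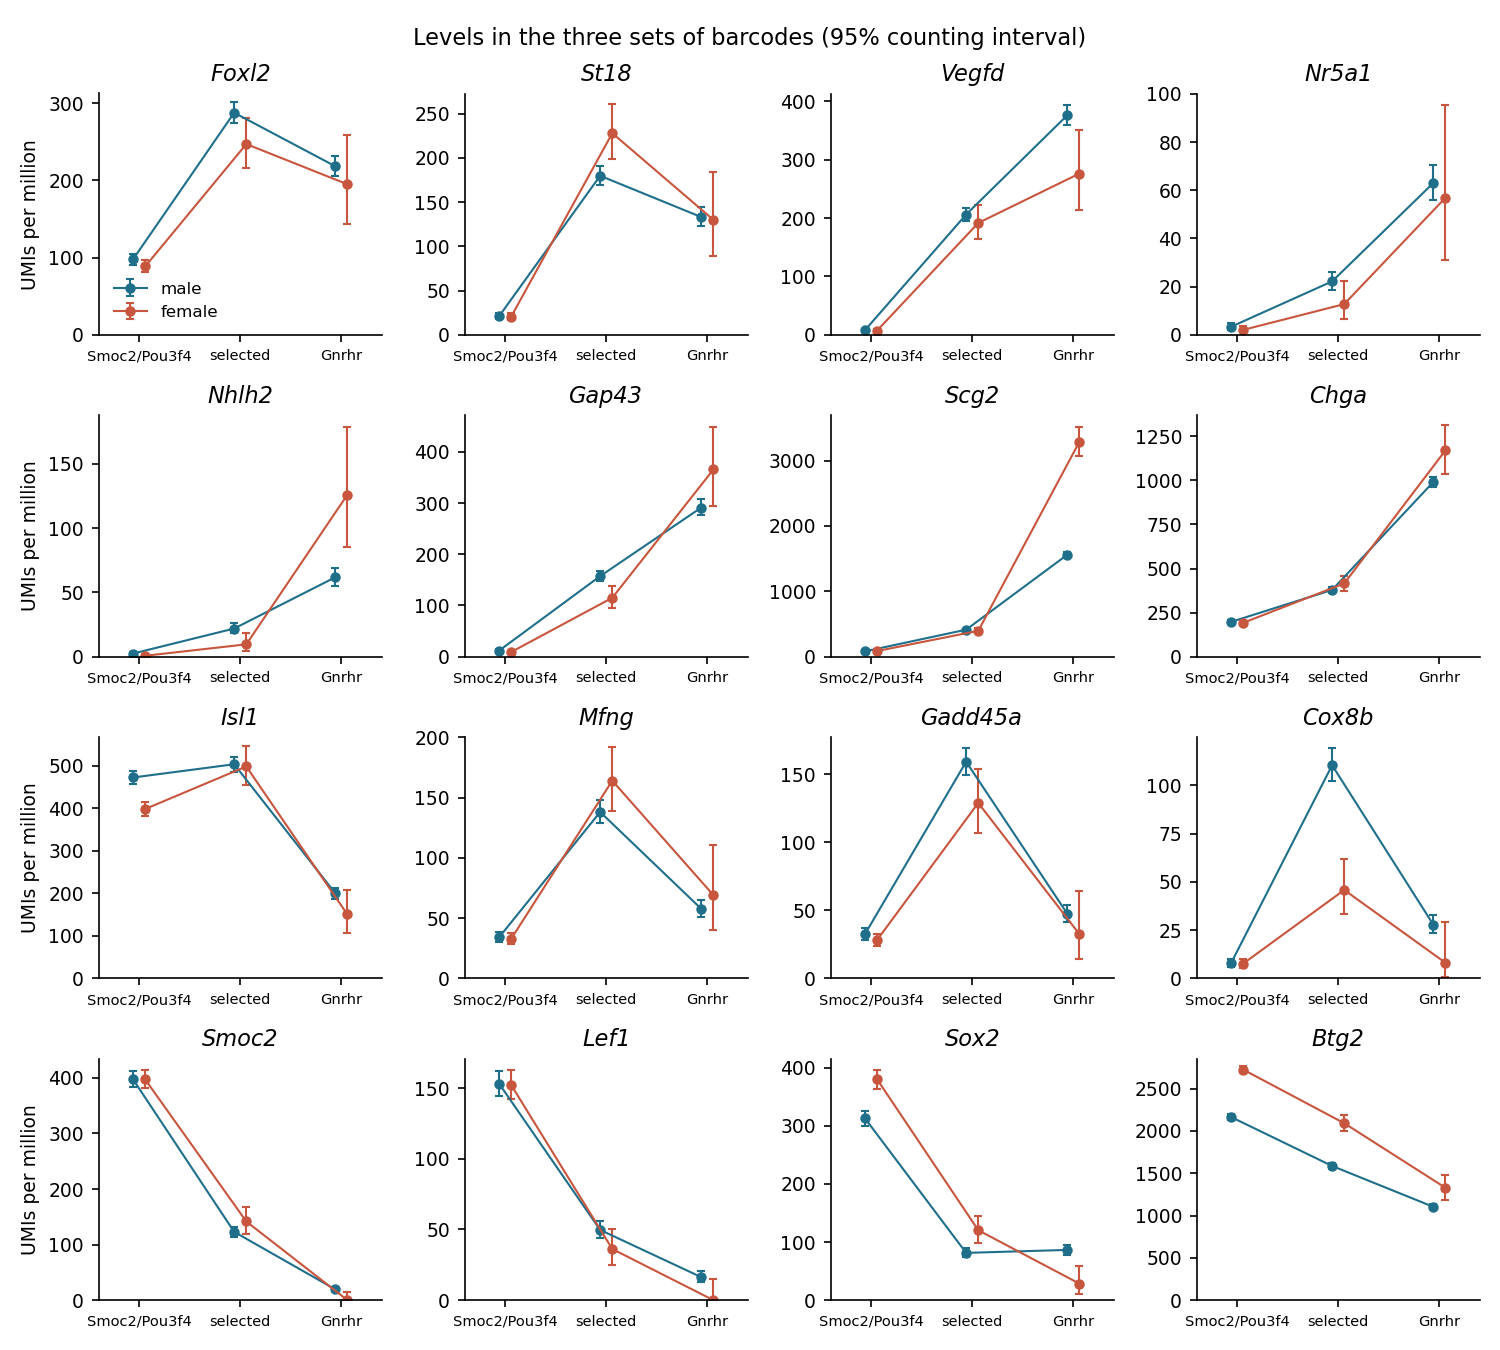
Levels of 16 genes in *Smoc2*+ *Pou3f4*+, selected and *Gnrhr*+ cells. The vertical axis gives CPM on a linear scale from 0, blue is the male and red the female library, and bars are exact 95% Poisson intervals, which cover counting error only. *Vegfd*, *Nr5a1*, *Nhlh2*, *Gap43*, *Scg2* and *Chga* step up from left to right, *Smoc2*, which chose the left set, *Lef1* and *Btg2* step down, and *Mfng*, *Gadd45a* and *Cox8b* peak in the selected cells.

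Only 6 of the 5585 genes compared with both sets were higher than in either (0.107%), and 2 were lower (0.0358%). *Cox8b* (ENSMUSG00000025488, chr7:140898945-140900446, minus strand), a subunit of the respiratory chain complex IV best known from muscle, was at 110.3 CPM (102 to 119) in male and 45.8 CPM (33.1 to 61.7) in female selected cells. In *Gnrhr*+ cells it was at 27.9 and 8.12 CPM, the latter from 2 UMIs with a ratio of 5.64 (1.47 to 48.0), and in *Smoc2*+ *Pou3f4*+ cells at 7.80 and 7.63 CPM. *Gadd45a* (ENSMUSG00000036390, chr6:67035096-67037457, minus strand), a growth-arrest and DNA-damage response gene, was at 159 CPM (149 to 169) and 129 CPM (107 to 154), against 47.5 and 32.5 CPM and 32.5 and 28.3 CPM. *Mfng* (ENSMUSG00000018169, chr15:78755882-78773475, minus strand), a fringe glycosyltransferase that modifies Notch receptors, was at 138 CPM (129 to 148) and 164 CPM (139 to 192), against 57.7 and 69.0 CPM and 34.0 and 32.8 CPM. The homeobox gene *Dlx5* was at 57.5 and 59.6 CPM (in female *Gnrhr*+ cells 1 UMI, with a ratio of 14.7 (2.53 to 590.1)), the zinc-finger gene *Zmat4* at 150.4 and 226 CPM and *Neurod4* at 33.6 and 76.7 CPM. That the selected cells were highest of the 3 sets in both libraries follows from how these 6 genes were chosen. *Neurod4* was higher still in *Pou1f1*+ cells, at 73.2 and 128 CPM, so its peak holds for these 3 sets. In males the ratios of *Neurod4* and *Zmat4* over *Smoc2*+ *Pou3f4*+ cells lay at the 2-fold limit. The lower genes were *Id1*, at 34.1 and 29.8 CPM, and *Ptn*, encoding the growth factor pleiotrophin, at 48.5 and 35.1 CPM. *Ptn* was at 222 and 167 CPM in *Gnrhr*+ cells and far higher in collagen-rich cells, at 3246 and 2778 CPM.

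**Figure D3:**
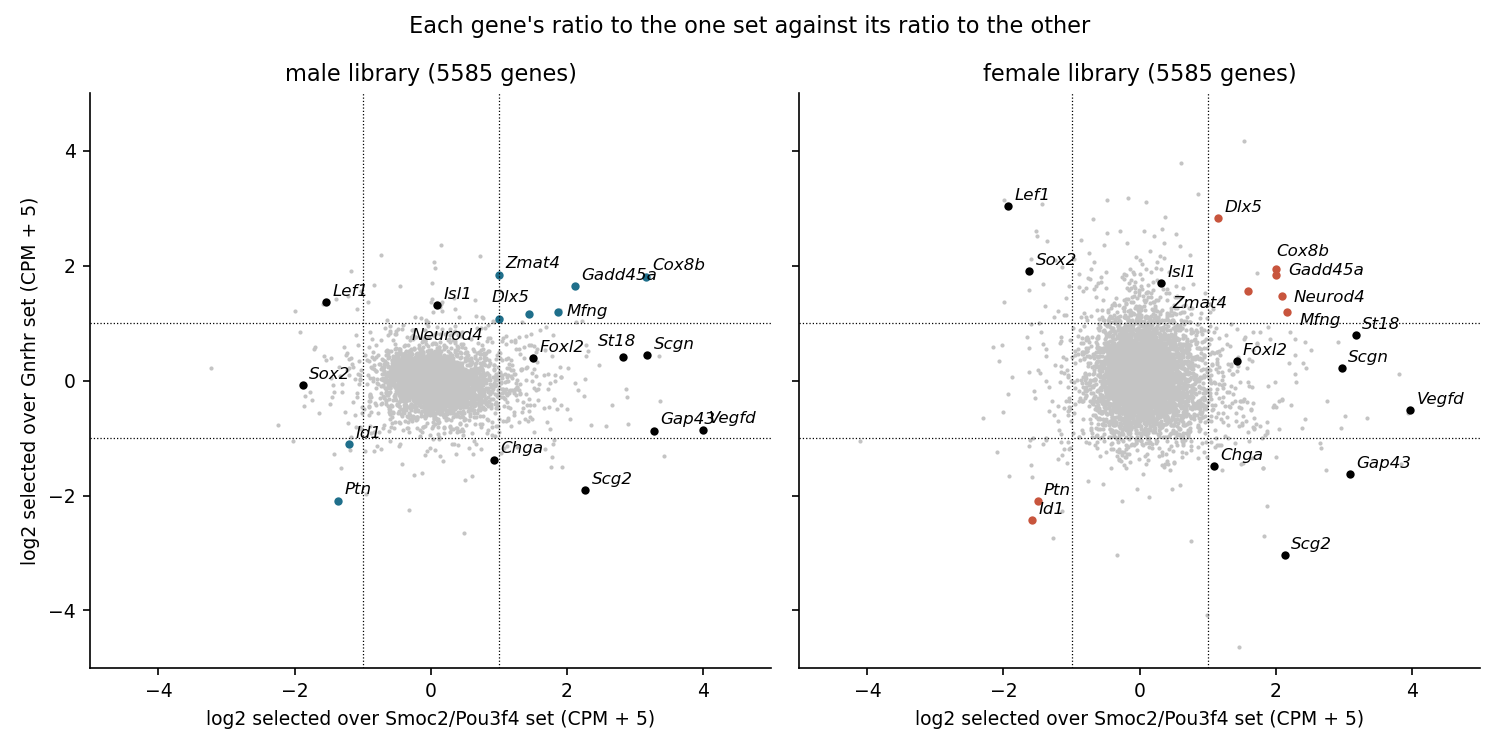
Log2 ratio of each of 5585 genes in the selected cells over *Smoc2*+ *Pou3f4*+ cells (horizontal) against that over *Gnrhr*+ cells (vertical), 5 CPM added to each level, in the male (left) and female (right) library. Coloured points are the 8 genes called in one direction against both sets, black points other named genes, and dotted lines mark 2-fold. *Cox8b*, *Gadd45a*, *Mfng*, *Dlx5*, *Zmat4* and *Neurod4* lie to the upper right and *Ptn* and *Id1* to the lower left in both libraries, and the female vertical axis rests on a reference set of 15 cells.

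Genes of growth arrest were not called together. Of 9 tested genes of the list, 2 were higher than in *Gnrhr*+ cells (0.558% of all genes), *Gadd45a* and *Gadd45g*, the latter at 481 and 377 against 183 and 118 CPM. Against *Smoc2*+ *Pou3f4*+ cells 2 of 9 were higher (2.65% of all genes), *Gadd45a* and the CDK inhibitor gene *Cdkn2d*, the latter at 64.8 and 57.5 against 22.2 and 11.1 CPM. *Gadd45b* was lower (1.53% of all genes). *Cdkn1b*, the gene of p27, was at 136 and 121 CPM, between the 59.8 and 62.1 CPM of *Smoc2*+ *Pou3f4*+ and the 304 and 162 CPM of *Gnrhr*+ cells. Cycling cells were few, as 21 of 451 male (4.66%, 2.91 to 7.03) and 1 of 65 female selected cells (1.54%, 0.0389 to 8.28) expressed 2 or more of 8 proliferation markers. The shares were 4.17% and 3.02% in *Smoc2*+ *Pou3f4*+ cells, 7.49% and 0% in *Gnrhr*+ cells (in females 0 of 15, which allows a share of up to 20%) and 10.4% and 4.18% in *Pou1f1*+ cells.

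Notch pathway genes moved in both directions. Besides *Mfng*, the ligand gene *Dll3* was higher than in *Gnrhr*+ cells, at 53.7 and 54.3 against 18.2 and 20.3 CPM. The Notch target *Hes1* was lower, at 42.9 and 22.4 against 105 and 81.2 CPM. Together these are 3 of the 5 tested, while 0.558% of all genes were higher and 1.44% lower. Without the cells of highest Scrublet score the female log2 ratio of *Hes1* turned from -1.66 to 2.47, on 13 *Gnrhr*+ cells. Against *Smoc2*+ *Pou3f4*+ cells 1 of 6 was higher (2.65% of all genes), *Mfng*, and 1 lower (1.53% of all genes). The lower one was the ligand gene *Dll1*, at 41.4 and 40.5 against 101 and 102 CPM. Of axon-guidance and neurite genes, 4 of 8 tested were higher than in *Smoc2*+ *Pou3f4*+ cells (2.65% of all genes). These were *Gap43*, the ephrin receptor gene *Epha5*, and the microtubule genes *Stmn2* and *Tubb3*, the last at 413 and 330.1 against 80.4 and 18.9 CPM. Against *Gnrhr*+ cells only *Epha5* of 7 tested was called, and it was lower (1.44% of all genes). Among voltage-gated channels the sodium channel gene *Scn3a* was the 1 of 7 tested that was lower than in *Gnrhr*+ cells, at 33.3 and 13.8 against 127 and 106 CPM.

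Hormone receptor and activin genes showed no call. Of receptors for hypothalamic and steroid signals, *Gnrhr* apart, 3 were abundant enough to compare, and none was called. All 3 tested genes of the activin, inhibin and follistatin system were uncalled against both sets. The gonadotroph-enriched list had 1 of 6 tested genes higher (the peptide gene *Cartpt*, at 45.1 and 153 against 13.7 and 20.3 CPM) and 1 lower (*Tgfbr3l*) than in *Gnrhr*+ cells, and 2 of 4 higher than in *Smoc2*+ *Pou3f4*+ cells (*Scgn* and *Syn2*). The shares over all genes were 0.558%, 1.44% and 2.65%. No gene was called against either set among the proliferation, POU1F1-lineage and corticotroph markers, of which 1 to 4 per list were abundant enough. Of VEGF genes only *Vegfd* was called, and only against *Smoc2*+ *Pou3f4*+ cells, while its level was 1.82 (1.70 to 1.96) and 1.44 (1.07 to 1.91) times as high in *Gnrhr*+ cells, below the 2-fold limit. Immediate-early genes, which cell dissociation can induce, summed to 4759 and 4960.5 CPM in the selected, 4736 and 4256 in the *Gnrhr*+ and 6896 and 7969.9 CPM in the *Smoc2*+ *Pou3f4*+ cells. *Atf3* was lower than in *Smoc2*+ *Pou3f4*+ cells and *Junb* lower than in *Gnrhr*+ cells, 1 of 8 tested each time (1.53% and 1.44% of all genes). The part of the immediate-early genes in the other results was not tested.

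For genes at least 4-fold apart between *Smoc2*+ *Pou3f4*+ and *Gnrhr*+ cells, the level of the selected cells was placed on the log2 path from the first (0%) to the second (100%). In the male library the median place was 62.0% for the 71 genes higher in *Gnrhr*+ cells and 58.2% for the 28 lower ones. In the female library it was 52.5% for 120 genes and 36.9% for 74, chosen against the smaller *Gnrhr*+ set. Single genes were spread over most of the path. In the male library *Nnat* was at 91.1%, *Rab3a* at 89.7% and *Gap43* at 79.1%, *Nhlh2* at 58.6%, *Nr5a1* at 56.3% and *Scg2* at 54.4%, and *Pcsk1n* at 15.4% and *Rgs4* at 10.3%.

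Within the selected cells, several genes differed with the level of *Cga*. The cells were divided at 5000 and 10000 *Cga* CPM, into 125, 139 and 187 male and 29, 17 and 19 female cells of similar depth, with medians from 13209 to 15409 UMIs. *Smoc2* went from 252 CPM (228 to 277) through 134 to 29.9 CPM (23.6 to 37.5) in males and from 218 CPM (174 to 270.0) through 119.5 to 54.8 CPM (30.7 to 90.4) in females. *Sox2* went from 157 to 20.5 and from 226 to 25.6 CPM, and *Lef1* from 99.1 to 19.7 and from 56.5 to 21.9 CPM. *Isl1* fell less steeply, from 678 to 369.7 and from 598 to 365 CPM. *Vegfd* went the other way, from 81.8 CPM (68.7 to 96.7) through 188 to 301 CPM (280.2 to 323) and from 79.6 CPM (54.1 to 113) through 228 to 314 CPM (251 to 388). *Gap43* rose from 49.6 to 256 and from 56.5 to 216 CPM. *Nr5a1* was at 11.9 and 31.9 CPM in the male bins at either end, and at 5.14 and 29.2 CPM in the female ones, where its intervals overlap. *Foxl2* differed less, with 248 CPM (224 to 273) and 312 CPM (290.5 to 334) in the male end bins and 208 CPM (165 to 259) and 278 CPM (219 to 348) in the female ones. *Gadd45a* and *Syt1* had overlapping intervals in the male end bins, at 172 and 141 CPM and at 234 and 262 CPM.

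**Figure D4:**
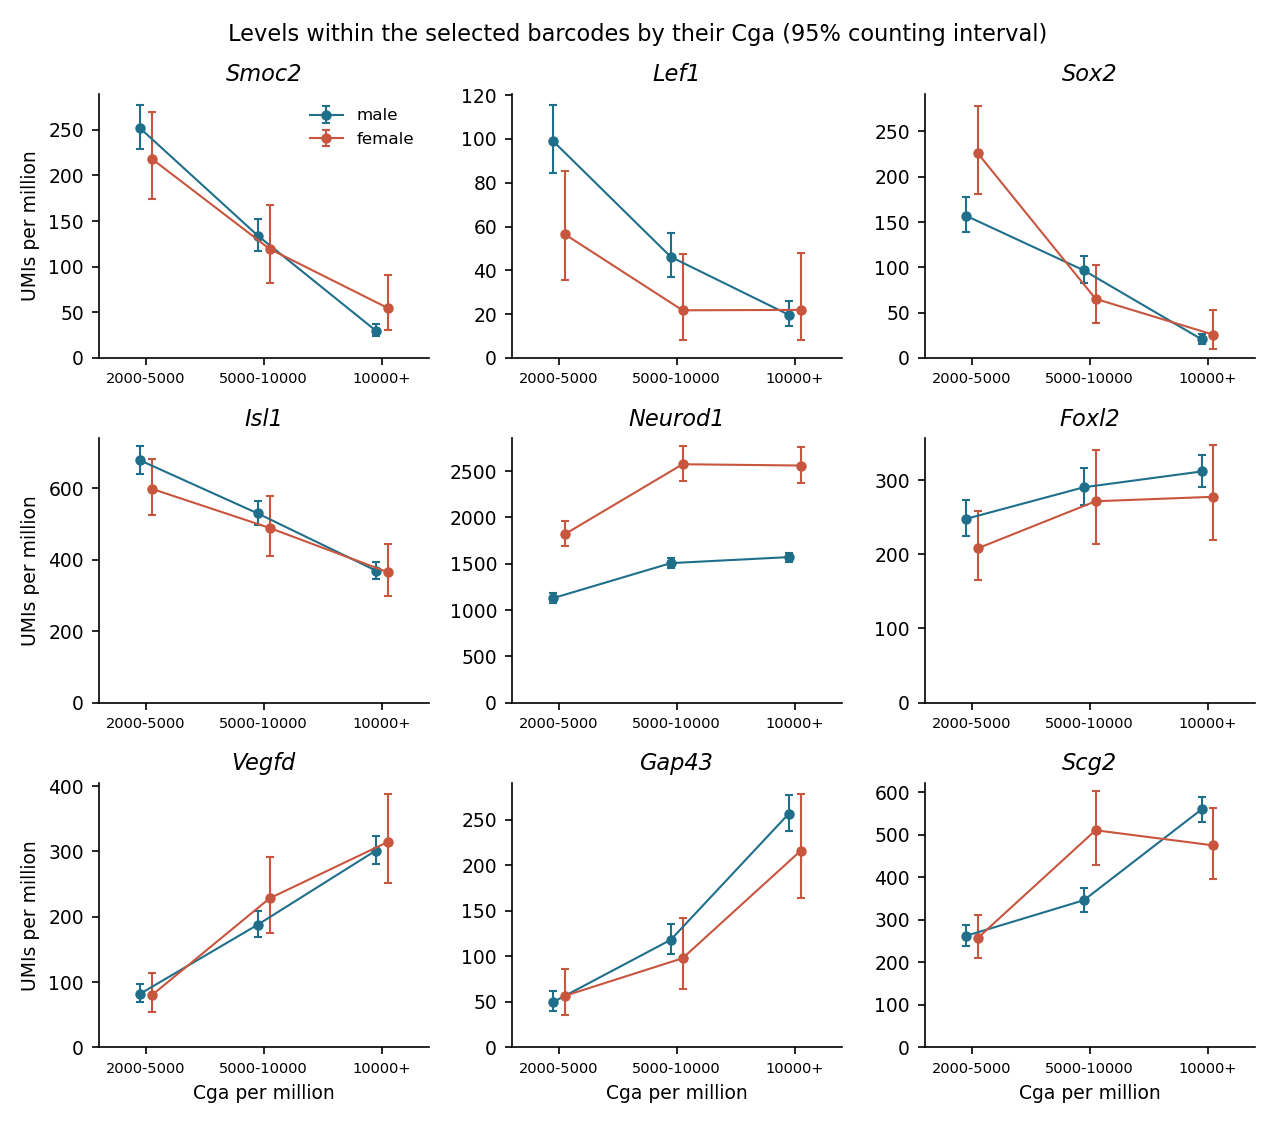
Levels of 9 genes within the selected cells, divided by their *Cga* CPM into 125, 139 and 187 male (blue) and 29, 17 and 19 female (red) cells. The vertical axis gives CPM on a linear scale from 0, and bars are exact 95% Poisson intervals, which cover counting error only. *Smoc2*, *Lef1*, *Sox2* and *Isl1* are lower and *Vegfd* and *Gap43* higher in the highest than in the lowest *Cga* bin in both libraries.

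*Smoc2* and *Vegfd* were also set against each other cell by cell. After thinning, *Vegfd* was found in 31.6% of the 117 male selected cells with a *Smoc2* UMI and in 60.1% of those without, and in the female library in 30.8% of 26 and 59.0% of the rest. *Syn2* was found in 27.4% of male cells with and 44.1% without *Smoc2*, and in 3.85% and 33.3% in the female library. *St18* was found in 56.8% of male cells with *Foxl2* and 55.8% without, and in 61.4% and 57.1% in the female library. Cells are not replicates, so these shares are a description.

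Between the male and female selected cells, 25 genes were at least 2-fold higher (0.42% of 5951) and 15 lower (0.252%), with no replicate to check any of them. Leading the male side were the Y-linked genes *Ddx3y* and *Eif2s3y*, then *Pomc*, the secretory protein gene *Resp18* at 46.9 against 10.6 CPM, and *Gh*. *Pomc* was higher in the male than in the female collagen-rich cells too, at 1726 and 33.6 CPM. The 2 male cells highest in *Gh* held 43.1% of its counts, and the 2 highest in *Resp18* held 65.7% of its counts. Whether these were the same cells was not examined. Leading the female side were *Xist* and *Tsix*, of the inactive X chromosome, and the mitotic genes *Prc1*, *Nusap1* and *Ube2c*. A single female cell held 37 of 37 *Top2a* and 40 of 40 *Prc1* UMIs, and without this cell *Top2a* and *Prc1* were at 0 in the female set. *Neurod1* itself had a median of 2207 CPM in the female and 1414 CPM in the male cells, and *Neurod4* was at 76.7 and 33.6 CPM, both higher in the female library. *Cga* showed the reverse order, with medians of 5731 and 8486 CPM. The 3 markers outside the rule were not called between the libraries.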

How the data were processed

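Single-cell RNA was measured in 2 libraries, 1 male and 1 female. The deposited files hold raw counts of UMIs per gene and barcode, which the authors made with Cell Ranger 3.0.2 (per the file headers) on mm10 with eGFP added (31055 features), and the submitters' processing notes name R 3.6.0 and Seurat 3 and 4. The counts were not altered. Barcodes with under 1000 genes or over 10% mitochondrial counts were left out, and every table column was mapped (0 unmapped). Sets were chosen by rule, and UMIs were summed per set and library with Python 3.11.15, numpy 2.4.6, scipy 1.17.1 and pandas 2.3.3. *Pou1f1*+ cells had at least 2 *Pou1f1* UMIs and collagen-rich cells at least 20 *Col1a1* and *Col3a1* UMIs without *Pitx1*. Thinning drew UMIs without replacement. Scrublet (scanpy 1.11.5) marked 0.8% of barcodes per 1000 in the library, and those were removed only as an alternative. The comparison was run on simulated counts that had counting error only and planted changes above 2-fold. That run did not cover variation between cells or libraries, nor changes at the 2-fold limit. No p-value was computed, since there is 1 library per sex. The members, the 22 gene lists and the rule for named genes (the markers and rule genes, list examples, the 10 genes each way farthest apart from each set in the library with the smaller ratio, 5 each way between libraries, and sex-linked genes) were chosen with earlier results of these data known. Alternatives were other limits, level filters, folds, pseudocounts, scalings, depths of thinning and leaving out a library. The litters of the pooled pituitaries are not given in the sources used here. The promoter check over gene lists was left out because under 80% of the genes matched. Some genes of the lists are not reported here.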

Additional observations from a re-analysis of the deposited data

Results flagged for a closer look

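Some genes lay on opposite sides of 1 in the 2 libraries when the selected cells were set over a reference set. These differences were not tested, as there is 1 library per sex.

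Over *Gnrhr*+ cells, *Pomc* had a ratio of 4.52 in males and 0.638 in females, where 16 male cells and 1 female cell held most of its counts. *Cdkn1c*, the CDK inhibitor gene of p57, had ratios of 0.643 and 1.17. Among mitotic genes the male ratios were 0.52 for *Birc5*, 0.493 for *Nusap1*, 0.277 for *Prc1*, 0.312 for *Top2a* and 0.263 for *Ube2c*. The 15 female *Gnrhr*+ cells had no UMI of these 5 genes, so the female ratios are lower bounds against a floor of 3 counts in that set, of at least 1.57 for *Birc5*, 3.23 for *Nusap1*, 3.5 for *Prc1*, 3.23 for *Top2a* and 3.5 for *Ube2c*. A single female selected cell held 37 of 37 *Top2a* and 40 of 40 *Prc1* UMIs.

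Over *Smoc2*+ *Pou3f4*+ cells, the peptide gene *Cartpt* had ratios of 0.359 in males and 1.27 in females, the granin gene *Chgb* 0.911 and 3.98, the Notch-related gene *Dlk1* 0.948 and 1.39, and *Gh* 2.61 and 0.346. *Nusap1* had ratios of 0.553 and 1.79, *Prc1* 0.297 and 1.66, and *Ube2c* 0.308 and 2.01.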

How the results depend on the processing

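With 1 library per sex, no value here has a replicate check. The number of male selected cells was 399 with at least 2000 genes per cell, 507 with a *Cga* limit of 1000 CPM and 522 with 1 *Neurod1* UMI. With a *Cga* limit of 5000 CPM it was 326, and 36 in the female library, and 39 genes were higher and 24 lower in the male than in the female cells. The ratio of shares stayed between 4.43 and 6.34. With a level filter of 50 CPM, 14 genes were higher and 42 lower than in *Gnrhr*+ cells, 80 and 46 than in *Smoc2*+ *Pou3f4*+ cells, 3 were higher than in both, and 9 and 7 differed between the libraries. Without a level filter these counts were 59, 168, 267 and 150, 4 genes were lower than in both sets, and 89 and 37 differed between the libraries. At a fold of 3 they were 7, 29, 49 and 19, with 2 higher and 0 lower than both sets, and 4 and 7 between the libraries. The count lower than both was 1 with a *Cga* limit of 1000 CPM and 1 with the mean of per-cell CPM. Leaving out 1 library gave 54 to 280 genes higher and 118 to 349 lower than in *Gnrhr*+ cells, 211 to 212 and 124 to 153 than in *Smoc2*+ *Pou3f4*+ cells, and 12 to 13 and 10 to 21 than in both. The larger counts without the male library rest on 15 female *Gnrhr*+ cells. No gene called against the *Gnrhr*+ or the *Smoc2*+ *Pou3f4*+ cells took the opposite call under any alternative run. Under the other fold, pseudocount and level filters, or without 1 library, an opposite call was not possible, since the same levels are compared. For calls between the libraries, opposite calls were not counted.

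Of 7252 log2 ratios of named genes under alternatives, 1089 moved outside the interval of their main value without counting as reversed. Another 14 counted as reversed, which means that they changed sign from a main log2 ratio of at least 1 in size. Sign changes from smaller main ratios were not counted separately. The ratio of *Pomc* became -0.26 between the libraries at a *Cga* limit of 5000 CPM and, without the *Pomc*-rich cells (an alternative chosen after seeing the data), -2.15 over male *Gnrhr*+ and -1.37 over female *Smoc2*+ *Pou3f4*+ cells. At that *Cga* limit *Top2a*, *Prc1*, *Nusap1* and *Ube2c* turned to 1.53, 1.41, 0.98 and 0.91 between the libraries. With at least 2000 genes per cell *Gh* turned to -0.62 over male *Smoc2*+ *Pou3f4*+ cells and -0.37 between the libraries. Over female *Gnrhr*+ cells *Tgfbr3l* turned to 0.30 at 5% mitochondrial counts, and *Hes1*, *Zfp36l1* and *Tgif1* to 2.47, 2.16 and 0.07 without the highest Scrublet scores. *Prc1* was at 0.01 over male *Smoc2*+ *Pou3f4*+ cells with the mean of per-cell CPM. The cause of these changes was not tested. No paired analysis was possible because each sex has 1 library and the labels give no shared replicate numbers.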

Other observations

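Values are given here for 3 gene lists put together after the values were seen, so their counts are a description of chosen genes and support nothing. Of 21 chaperone and stress genes of the endoplasmic reticulum, 11 were higher and 0 lower than in *Smoc2*+ *Pou3f4*+ cells, where 2.65% of all genes compared were higher and 1.53% lower, and 0 were called against *Gnrhr*+ cells. Their levels summed to 5719 CPM in male and 5513 CPM in female selected cells, against 2540 and 2547 CPM in *Smoc2*+ *Pou3f4*+ and 5669 and 6953 CPM in *Gnrhr*+ cells. *Hspa5*, the gene of the chaperone BiP, was at 702 and 753 CPM in the selected cells, against 289.7 and 306 CPM in *Smoc2*+ *Pou3f4*+ and 696 and 861 CPM in *Gnrhr*+ cells. The selected cells had no *Lhb*, by the rule, and no *Fshb* UMI.

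Of 20 neuronal cytoskeleton genes compared, from the list chosen in the same way, 12 were higher than in *Smoc2*+ *Pou3f4*+ cells (2.65% of all genes), and against *Gnrhr*+ cells 0 of 21 were higher and 1 lower. From the list of G1 cyclin genes, likewise chosen after the values were seen, *Ccnd1* and *Ccnd2* were lower than in *Smoc2*+ *Pou3f4*+ cells, 2 of 3 compared (1.53% of all genes). *Ccnd1* was at 31.5 and 37.3 CPM against 143 and 105 CPM.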
